A study of Mus musculus with 24 samples.

Results

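The potassium channel genes of the mouse were followed in whole spinal cord at 8 weeks of age, in animals that carried a neuropathy mutation of Gars with or without the stress kinase Gcn2. A gene was taken when it was protein coding, had a symbol beginning with Kcn in GENCODE M21 (Kcnj14 was not taken) and held at least 240 expected counts summed over the 24 libraries. Of 93 such symbols in the files, 74 met the minimum, out of 38924 genes in all. Nearest above it were Kcnh3, Kcnh4, Kcnj5 and Kcnmb1, and nearest below it were Kcnj4 with 226 summed counts, Kcng3 with 225, Kcnv2 with 223 and Kcnq1 with 207. All 74 passed the filter on low counts, which left 17409 genes to test.

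Poly(A) RNA of whole cord was sequenced from 6 genotype groups. With no intact copy of Gcn2 (Gcn2-/-) there were 5 GarsP278KY/+ mice and 3 Gars+/+ mice. With 1 copy (Gcn2+/-) there were 4 GarsP278KY/+ and 4 Gars+/+ mice, and with both copies (Gcn2+/+) again 4 GarsP278KY/+ and 4 Gars+/+ mice. All carried the labelled strain background B6J;CASTxB6.129, and 13 were male and 11 female. The labels name no driver or tissue limit for either allele. Mutants below are GarsP278KY/+ mice, and controls are Gars+/+ mice of the same Gcn2 genotype. Each library is taken as 1 animal, which the labels imply by a number and a sex for each without stating it. If that is wrong, the p-values measure only the spread between libraries.

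Potassium channels let potassium leave a cell and so set its resting potential, end its action potentials and limit its firing rate. In the spinal cord, the voltage-gated Kv1 and M-type channels sit along myelinated axons near and at the nodes, Kv3 and calcium-activated channels shape firing at the cell body, two-pore channels carry leak current, and inward rectifiers of astrocytes and oligodendrocytes take up potassium that neurons release. Beta and other accessory subunits carry no current and change how the pore opens or where it is placed. Gars encodes glycyl-tRNA synthetase, of which P278KY is a dominant mutation that gives mice a motor and sensory neuropathy of the Charcot-Marie-Tooth group, and Gcn2 (gene symbol Eif2ak4) is a kinase of the integrated stress response that is turned on by uncharged tRNA and stalled ribosomes.

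The 24 libraries held 19.7 to 32.4 M expected counts, of which the potassium channel genes took 0.551% to 0.642%. CPM below means expected counts per M of the library total, scaled by the trimmed mean of M values. Eif2ak4 was at 11.4 to 15.0 CPM in Gcn2-/- mice, 20.4 to 23.6 CPM in Gcn2+/- mice and 28.9 to 34.4 CPM in Gcn2+/+ mice, with no overlap, so each library went with its Gcn2 label. Motor neuron markers (9 of the 10 listed were found) had a mean log2 CPM of 4.44 to 4.56 in Gcn2-/- mutants, against 4.69 to 4.88 in Gcn2-/- mice with wild-type Gars. The same mean was 4.12 to 4.32 in Gcn2+/- mutants against 4.76 to 4.99 in their controls, and 3.99 to 4.27 in Gcn2+/+ mutants against 4.83 to 5.01 in theirs. By gene, the difference in Gcn2-/- mice was uneven. There 4 of the 9 markers had a log2 fold change above 0, with a median of -0.04 and a lowest value of -1.96. The median was -0.44 in Gcn2+/- mice, with all 9 below 0, and -0.55 in Gcn2+/+ mice, with 8 below 0. Whole tissue cannot tell fewer cells of a type from less RNA per cell, and the part of this marker difference in any result below was not tested.

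Some libraries stood apart from others of their own group. Markers of Schwann cells and nerve root (10 of 10 found) had a mean log2 CPM above 3 in 5 libraries, namely Gcn2+/- mutant 4, Gcn2+/- control 1 and 3, and Gcn2+/+ mutants 2 and 4. The range of this mean was 0.60 to 1.73 in Gcn2-/- mutants and 0.73 to 0.84 in their controls. It was 0.69 to 3.01 in Gcn2+/- mutants and 1.19 to 5.04 in their controls, and 0.76 to 5.27 in Gcn2+/+ mutants and 0.65 to 0.88 in theirs. The libraries also fell into sets by transcript length, meaning the length that RSEM assigns to each gene from the transcript forms it finds in a library. The first component of that length over 5271 genes other than the potassium channel genes held 34.8% of the variance, the next one 5.6%. It put 9 libraries at 0.201 or above, called here the longer set, and 15 at -0.077 or below, the shorter set. The longer set held 1 of 5 mutants and 2 of 3 controls with Gcn2-/-, 3 of 4 mutants and 0 of 4 controls with Gcn2+/-, and 0 of 4 mutants and 3 of 4 controls with Gcn2+/+. Length set and Gars genotype were therefore close to confounded, in opposite directions, in Gcn2+/- and Gcn2+/+ mice. The labels name a pair of library kits, KAPA Stranded mRNA-Seq and KAPA mRNA HyperPrep, without saying which library had which, and the cause of the sets was not tested. Results are given below with and without a term for the set.

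**Figure D1:**
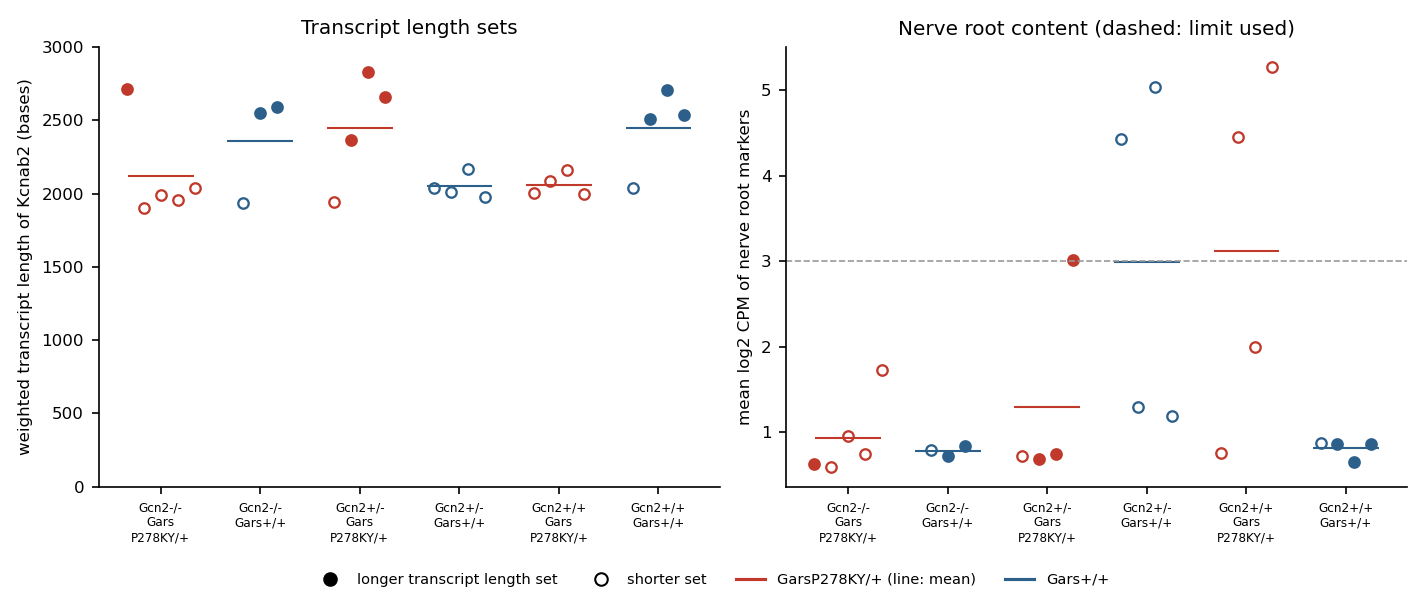
Each point is 1 library and each line a group mean, in groups from left to right: Gcn2-/- mutant and control, Gcn2+/- mutant and control, Gcn2+/+ mutant and control; filled points are of the longer set and open points of the shorter. The left panel shows the length in bases that RSEM assigned to Kcnab2, 2367 to 2831 in the longer set and 1902 to 2169 in the shorter, and the right panel the mean log2 CPM of the nerve root markers, where 5 libraries lie above the dashed limit of 3.

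The potassium channel transcripts of the cord were dominated by a few genes, given here in TPM, the deposited scale of transcript abundance that allows for gene length. The highest mean over the 24 libraries was that of Kcnab2, the cytoplasmic beta2 subunit of Kv1 channels, at 428.5 ± 75.0 TPM (SD, n = 24). In every library of the longer set Kcnab2 was below the mean of Kcnj10, as the values further below show. Next came Kcnj10, the inward rectifier Kir4.1 of astrocytes and oligodendrocytes, at 366.7 ± 28.9 TPM. Kcnc1 (Kv3.1), a pore subunit of fast-spiking neurons, was at 156.4 ± 10.9 TPM. Kcna1 (Kv1.1), a pore subunit placed beside the nodes of myelinated axons, stood at 153.0 ± 9.52 TPM, and its neighbour in this order, Kcnc1, did not differ from it beyond their spread. The 5 highest genes made up 49.3% of the summed TPM of the 74, and the first 10 made up 65.4%. Of the 74, 6 had a mean of at least 100 TPM, 30 lay between 10 and 100, 33 between 1 and 10, and 5 below 1. At the low end were Kcnh3, Kcnh4 and Kcnj5, at 0.378, 0.357 and 0.324 TPM.

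By family, the 3 beta subunits of Kv1 took 20.8% of the summed TPM. Kcnab2 alone, whose TPM differed by length set, took 15.57%. The 10 inward rectifiers took 19.1%, the 4 Kv3 genes 17.3% and the 6 Kv1 pore genes 11.2%. The 10 two-pore channel genes took 6.2%, led by Kcnk1 (TWIK-1) at 67.5 TPM, and the 4 M-type channel genes 4.7%. The sodium-activated Kcnt1 stood at 107.5 ± 13.7 TPM, and Kcnh2 of the ERG channels at 72.6 TPM. Among the silent subunits, which form no channel on their own and join Kv2 pores, Kcng4 led at 35.9 ± 10.3 TPM. The calcium-activated BK pore Kcnma1 was at 16.1 ± 1.44 TPM. The summed TPM of the 74 genes ran from 2516 to 3065 over the libraries, with a median of 2741.

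**Figure D2:**
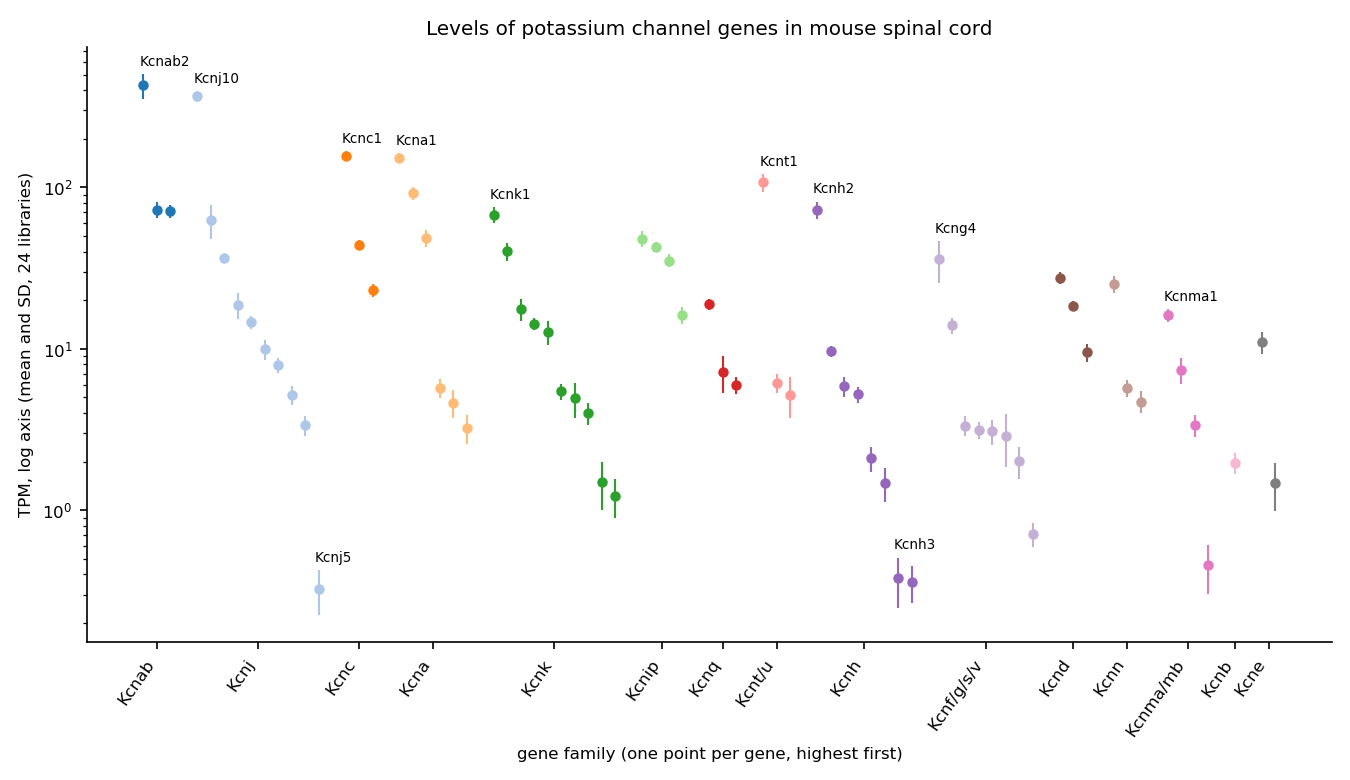
Mean TPM over 24 libraries of 71 of the 74 genes, on a log axis and grouped by symbol family, with the SD as bars and the names of some genes the text describes. Kcnab2 at 428.5 and Kcnj10 at 366.7 TPM stand at the top, and Kcnh3, Kcnh4 and Kcnj5 lie below 1 TPM.

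Most of these genes varied little. The median SD of log2 CPM over the 24 libraries was 0.181 for the 74 genes and 0.183 for all genes tested, and 45 of the 74 had an SD under 0.2. The widest spread was in Kcns1 (0.553), a silent Kv subunit, followed by Kcnh3 (0.505), Kcng4 (0.481) and Kcnmb1 (0.472), the beta subunit of BK channels in smooth muscle. The TPM of Kcnab2 is a case apart, because its assigned length differed between the length sets, at 2367 to 2831 bases in the longer set and 1902 to 2169 in the shorter. Its TPM was 326.5 to 359.3 in the longer set and 407.0 to 529.2 in the shorter set, with no overlap. Its CPM, which does not use length, was 429.6 to 509.7 in the longer set and 402.7 to 524.7 in the shorter, with full overlap. Kcnd3, the A-type pore Kv4.3, was the other gene of the 74 whose lengths did not overlap, at 6489 to 6764 bases in the longer set and 5716 to 6487 in the shorter. The comparisons below therefore use counts, not TPM.

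The first comparison asked what the Gars mutation changed in mice with normal Gcn2. A gene is said to have changed, or is called, when edgeR's quasi-likelihood test with Benjamini-Hochberg adjustment over all 17409 genes gave an adjusted p below 0.05, in 1 fit of the 6 groups with a term for sex. Of the 74 genes only Kcnab1 changed, and it fell by 27.9% in GarsP278KY/+ cords relative to Gars+/+ cords. Of all genes 110 were called (0.632%), with 0.419% lower. Once the length set was in the fit, only Kcnma1 fell among the 74 and Kcnab1 was no longer called, with 0.201% of all genes called. Of the 74 genes, 49 had a fold change below 0 (66.2%, against 47.3% of all genes tested), and their median log2 fold change was -0.07, against 0.01 for all genes. At an unadjusted p below 0.05 there were 19, or 25.7%, against 17.3% of all genes. These came to 3 above 0 (8.25% of all genes) and 16 below (9.01%). In the fit with the length set 45 of 74 were below 0, and the median was -0.09 against 0.01.

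Kcnab1 encodes the beta1 subunit of Kv1 channels, which gives them fast inactivation (chr3:65109384-65378223, plus strand, GRCm38). In Gcn2+/+ cords it was at 102.1, 92.4, 106.1 and 98.6 CPM in mutants, against 125.6, 146.8, 162.5 and 124.6 CPM in controls. Every mutant lay below every control. Controls 1 and 4 were the nearest to the mutants, and control 3 was the highest of all 24 libraries. The log2 fold change was -0.47 ± 0.09 (SE, adjusted p = 0.0115 by edgeR), and -0.44 without mutant 2, where the call was lost (adjusted p = 0.0515). It was -0.42 with every library high in nerve root markers left out (adjusted p = 0.146) and -0.31 ± 0.09 with the length set in the fit (adjusted p = 0.231). Kcnab1 itself was higher in the longer set than in the shorter by 0.19 ± 0.06 on the log2 scale (adjusted p = 0.031, edgeR), and 3 of its 4 controls here are of the longer set. Control 1 and all 4 mutants are of the shorter set, and within that set the log2 fold change was -0.34 (adjusted p = 0.898, with a lone control library).

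Kcnma1 encodes the pore of the BK channel, which opens on calcium and depolarization together and ends the action potential (chr14:23289431-24014491, minus strand). In Gcn2+/+ cords it was at 33.7, 36.4, 35.1 and 36.9 CPM in mutants, against 43.6, 40.2, 43.7 and 41.1 CPM in controls. All 4 mutants lay below all 4 controls, and the control of the shorter set, at 43.6 CPM, was among the highest. The log2 fold change was -0.29 ± 0.08 without the length set (adjusted p = 0.0807, edgeR) and -0.43 ± 0.08 with it (adjusted p = 0.0131). Without every library high in nerve root markers it was -0.31 (adjusted p = 0.263), and with both the length set and the nerve root score in the fit it was -0.41 (adjusted p = 0.0658). In the shorter set alone it was -0.42 (adjusted p = 0.602). Kcnma1 was lower in the longer set than in the shorter by 0.16 on the log2 scale (-0.16 ± 0.05, adjusted p = 0.036), which is opposite in sign to Kcnab1.

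The start regions of the called genes are shown, so that their letters can be read beside the values, for those with an entry in the table used. Each sequence is RefSeq's on GRCm38.p6, 250 bases before to 50 after a transcript start, 300 bases in all and 5′ to 3′ on the gene's strand. Capitals mark any match, on either strand, of the GC box GGGCGG, the TATA box TATAAA or TGATGNAA, the core of the amino acid response element at which factors downstream of Gcn2 are known to bind. Kcnma1 has 1 such entry (chr14:24004156-24004455, minus strand), Kcnab1 has 3 (chr3:64948962-64949261, chr3:65108764-65109063 and chr3:65187853-65188152, plus strand) and Kcnj3, a G protein-gated channel gene described below, has 1 (chr2:55435720-55436019, plus strand).
Kcnma1: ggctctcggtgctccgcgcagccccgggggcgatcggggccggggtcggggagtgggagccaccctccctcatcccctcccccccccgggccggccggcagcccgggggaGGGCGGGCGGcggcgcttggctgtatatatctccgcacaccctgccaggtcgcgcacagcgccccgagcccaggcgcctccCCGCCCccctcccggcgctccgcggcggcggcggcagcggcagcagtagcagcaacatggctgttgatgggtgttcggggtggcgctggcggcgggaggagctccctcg
Kcnab1 start 1: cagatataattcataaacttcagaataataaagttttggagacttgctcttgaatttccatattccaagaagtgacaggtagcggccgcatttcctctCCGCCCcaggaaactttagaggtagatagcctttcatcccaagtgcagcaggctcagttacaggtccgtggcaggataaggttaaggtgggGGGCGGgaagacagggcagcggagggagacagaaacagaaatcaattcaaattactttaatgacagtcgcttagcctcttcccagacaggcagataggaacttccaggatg
Kcnab1 start 2: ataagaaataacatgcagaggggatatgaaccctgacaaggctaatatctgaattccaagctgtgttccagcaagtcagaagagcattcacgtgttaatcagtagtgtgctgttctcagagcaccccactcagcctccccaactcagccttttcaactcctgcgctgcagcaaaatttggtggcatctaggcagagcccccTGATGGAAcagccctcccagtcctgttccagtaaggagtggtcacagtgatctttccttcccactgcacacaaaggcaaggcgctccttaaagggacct
Kcnab1 start 3: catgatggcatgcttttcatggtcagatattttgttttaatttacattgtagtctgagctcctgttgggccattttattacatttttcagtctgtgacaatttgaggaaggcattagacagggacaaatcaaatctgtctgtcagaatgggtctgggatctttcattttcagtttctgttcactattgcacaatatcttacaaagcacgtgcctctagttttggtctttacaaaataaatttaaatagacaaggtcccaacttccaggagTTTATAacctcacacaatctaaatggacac
Kcnj3: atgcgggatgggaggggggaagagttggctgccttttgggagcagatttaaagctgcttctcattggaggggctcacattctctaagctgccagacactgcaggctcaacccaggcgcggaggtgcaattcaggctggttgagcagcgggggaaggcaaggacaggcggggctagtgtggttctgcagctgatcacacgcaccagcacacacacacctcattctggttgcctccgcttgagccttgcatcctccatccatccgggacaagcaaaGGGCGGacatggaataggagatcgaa

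The Kcnma1 window was 78.0% G and C, held 36 CG pairs and matched the GC box at bases 111, 115 and 192, of which the first 2 matches overlap. The 3 Kcnab1 windows were 46.7%, 50.3% and 36.7% G and C. The first matched the GC box at bases 99 and 190, the second matched TGATGNAA at base 202 and the third matched the TATA box at base 271 on the opposite strand. The first and second Kcnab1 windows end before the gene's GENCODE start given above, and the third lies inside its range. The Kcnj3 window was 57.7% G and C with 1 GC box at base 275. Of the 74 genes, 53 had an entry, with 76 windows between them, and their median G and C content was 60%, against 52.7% for all windows. The Kcnab1 match to TGATGNAA was the only one among the 76 (1.32%), against 3.97% of 32841 windows of the same length. The GC box was in 38 of the 76 (50%, against 35.7%), the TATA box in 3 (3.95%, against 13.6%) and TGACG, the core of the cyclic AMP response element, in 12 (15.8%, against 20.8%). A match describes these letters only. Kcnq3, Kcng1 and Kcnk9 are named here without a sequence.

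**Figure D3:**
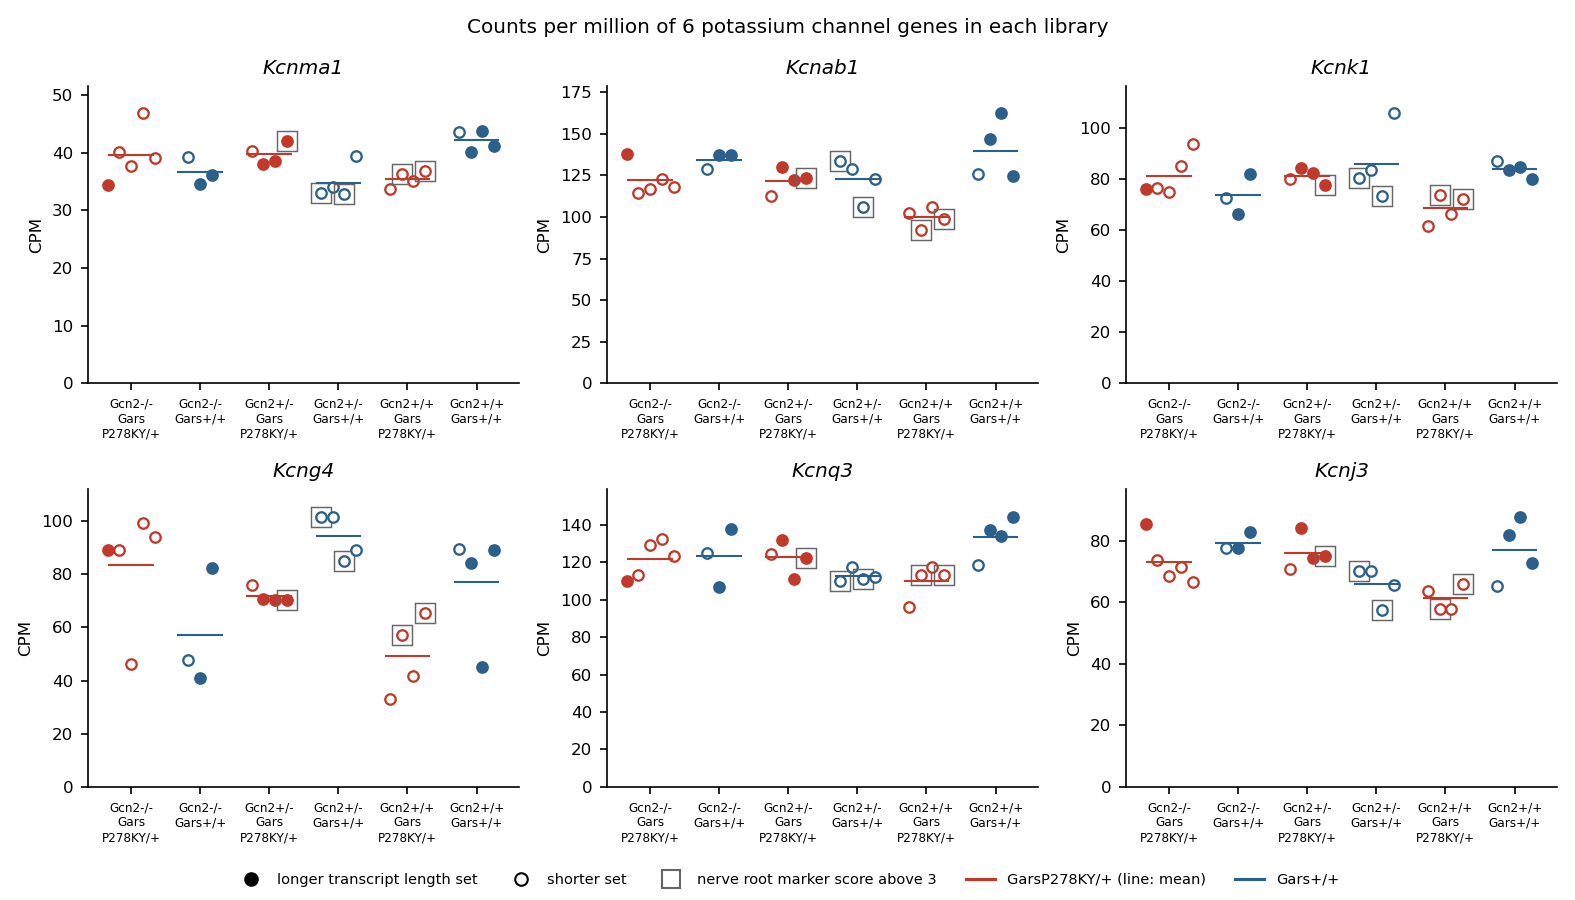
CPM of 6 potassium channel genes in each library, by group from Gcn2-/- on the left to Gcn2+/+ on the right with mutants left of controls. Filled points are of the longer set, open points of the shorter, and squares mark nerve root scores above 3. In Gcn2+/+ cords the mutants of Kcnab1 (92.4 to 106.1 CPM) and Kcnma1 (33.7 to 36.9 CPM) lie below all their controls.

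Among the other Kv1 genes, Kcna1 in Gcn2+/+ cords was at 666.9, 702.1, 732.6 and 718.9 CPM in mutants, against 780.0, 785.5, 839.6 and 756.9 CPM in controls. The groups did not overlap, but the log2 fold change of -0.16 ± 0.06 did not pass the test (adjusted p = 0.177, edgeR). Kcnab2 was at 407.3, 422.0, 467.0 and 402.7 CPM in mutants, against 498.3, 492.5, 509.7 and 436.4 CPM in controls, with control 4 below mutant 3. Its log2 fold change was -0.19 ± 0.06 (adjusted p = 0.151). Over the 10 axonal and nodal Kv genes, including Kv1, its beta subunits and the M-type genes, 1 fell (0.419% of all genes did) and 8 were below 0 (47.3% of all genes were). In 5 of the 10 the unadjusted p was below 0.05, all 5 below 0, as it was in 9.01% of all genes. The median was -0.12, against 0.01 for all genes. These values are from the fit without the length set, in groups where 0 of 4 mutants and 3 of 4 controls are of the longer set.

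The M-type pore Kcnq3, which restrains repeated firing, was at 96.1, 113.0, 117.5 and 113.4 CPM in Gcn2+/+ mutants, against 118.8, 137.1, 134.3 and 144.5 CPM in controls. The highest mutant and the lowest control were 117.5 and 118.8 CPM, so the groups stood apart by a narrow gap. The log2 fold change was -0.31 ± 0.08 (adjusted p = 0.0862, edgeR) and -0.34 ± 0.10 with the length set (adjusted p = 0.307). DESeq2's Wald test called it (adjusted p = 0.0197).

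Of the two-pore channels, Kcnk1 (TWIK-1), a weak leak channel found in astrocytes and neurons, was at 61.5, 73.8, 66.1 and 72.0 CPM in Gcn2+/+ mutants, against 86.9, 83.6, 84.7 and 80.0 CPM in controls. The 4 mutants lay below the 4 controls. Its log2 fold change was -0.37 ± 0.09 (adjusted p = 0.0549), -0.44 ± 0.10 with the length set (adjusted p = 0.128) and -0.42 without the libraries high in nerve root markers (adjusted p = 0.11), so it missed the threshold in each. DESeq2's Wald test called it (adjusted p = 0.00587). Kcnk9 (TASK-3), an acid-sensitive leak channel, was at 17.7, 23.2, 19.7 and 18.3 CPM in mutants, against 22.7, 23.0, 27.3 and 24.3 CPM in controls, with mutant 2 inside the range of the controls. The log2 fold change was -0.31 ± 0.09 (adjusted p = 0.108, edgeR, and 0.0363 by DESeq2).

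Of the silent subunits, Kcng1 (Kv6.1) was at 4.76, 4.87, 4.87 and 4.1 CPM in Gcn2+/+ mutants, against 6.77, 6.41, 5.4 and 6.95 CPM in controls. All mutants were below all controls, and the log2 fold change was -0.48 ± 0.12 (adjusted p = 0.0601, edgeR, and 0.0123 by DESeq2). Kcng4 (Kv6.4), a gene also known in mouse cord from fast motor neurons, was at 33.0, 57.3, 41.6 and 65.6 CPM in mutants, against 89.4, 84.4, 45.1 and 89.0 CPM in controls. Control 3 lay inside the range of the mutants and the other 3 controls above it. Its log2 fold change was the largest of these at -0.78 ± 0.26 and did not pass edgeR's test (adjusted p = 0.146), while DESeq2's Wald test called it (adjusted p = 0.0401). All 6 libraries of the study below 50 CPM carry 1 of the same 2 numbers at the start of their sample titles, which the labels do not explain. The other 3 of the 9 libraries with these numbers were at 70.7 to 94.0 CPM, and no library with another number was below 57.3 CPM. With the title number as a replicate block the log2 fold change was -0.67 (adjusted p = 0.184). Without the libraries high in nerve root markers, which include the 2 highest mutants, it was -1.11 (adjusted p = 0.247). The mutants left in that fit, 1 and 3, both carry 1 of these 2 title numbers, and among the controls only control 3 does. The part of the title number in that value was not tested. In all, DESeq2 called 7 of the 74 genes in Gcn2+/+ mice, all lower, namely Kcng1, Kcng4, Kcnk1, Kcnk9, Kcnq3, Kcnab1 (adjusted p = 7.94e-05) and Kcnma1 (adjusted p = 0.0166). The share of all genes that DESeq2 called is not given here for this or any other comparison. Its counts therefore have no background beside them and are no result about these genes as a set.

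Across the 74 genes, 9 had every Gcn2+/+ mutant below every control, namely Kcna1, Kcnab1, Kcnd1, Kcng1, Kcnk1, Kcnma1, Kcnn2, Kcnq3 and Kcns3. That is 12.2%, against 4.16% of all genes. Another 2 (2.7%, against 4.06%) had every mutant above every control, namely Kcna5 and Kcnmb1, both in the list of vascular channels. These counts carry no term for the length set, and 0 of 4 mutants and 3 of 4 controls are of the longer set. Kcnab1 was called higher in that set and Kcnma1 lower. The part of the length set in these counts was not tested. Markers of other cells also differed in this contrast, by some libraries more than others. The mean log2 CPM of skeletal muscle markers was 2.99 in mutant 2, against -2.54 to -2.19 in the other mutants and -2.51 to -2.12 in controls. All 8 markers of meninges and fibroblasts were above 0 with a median of 2.54, 7 of them at an unadjusted p below 0.05. Their summed level ran from 70.5 to 1401.3 CPM in mutants, against 68.8 to 100.7 CPM in controls. Their mean log2 CPM was 4.77 and 6.67 in mutants 2 and 4, the mutants high in nerve root markers. It was 2.22 and 2.9 in mutants 1 and 3, and 2.03 to 2.79 in controls. In Gcn2+/- mice all 8 were below 0, with a median of -1.74. Of the 7 endothelial and mural markers in Gcn2+/+ mice, 3 had an unadjusted p below 0.05 above 0 and 1 below. They lay within -0.39 to 0.92, with a median of 0.04. No marker of the meningeal list or of the endothelial and mural list was called. The part of all these markers in the values of Kcna5, Kcnmb1 and the other channel genes was not tested. None of the 15 channels of motor neuron cell bodies and fast-spiking cells was called without the length set, 2 had an unadjusted p below 0.05, both below 0 (9.01% of all genes), and their median was -0.07, against 0.01 for all genes. None of the 6 vascular genes was called, with a range of -0.28 to 0.77. Kcnmb1 was the highest of these, at 1.46, 0.988, 0.947 and 1.59 CPM in mutants, against 0.731, 0.496, 0.943 and 0.869 CPM in controls, where mutant 3 and control 3 nearly met.

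The glial channels did not change by this test in any comparison. The list held 9 genes, of which Kcnn4 is below the count minimum and the other 8 are of the 74, and in Gcn2+/+ mice their median was also -0.07. Kcnj10, the most abundant of them, was at 1030, 950, 1142 and 1001 CPM in Gcn2+/+ mutants, against 1199, 1127, 1033 and 1205 CPM in controls, which overlap. The Gars effect on it was -0.09 ± 0.08 in Gcn2-/- mice (adjusted p = 0.941), -0.17 ± 0.07 in Gcn2+/- mice (adjusted p = 0.312) and -0.19 ± 0.08 in Gcn2+/+ mice (adjusted p = 0.206), by edgeR. Kcnj16 (Kir5.1), which joins Kcnj10 in a pH-sensitive channel, had values of -0.48 ± 0.21, 0.32 ± 0.20 and -0.03 ± 0.21 in the same order of genotypes. The microglial Kcnk13 (THIK-1) had values of -0.13 ± 0.16, 0.08 ± 0.16 and -0.20 ± 0.16.

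**Figure D4:**
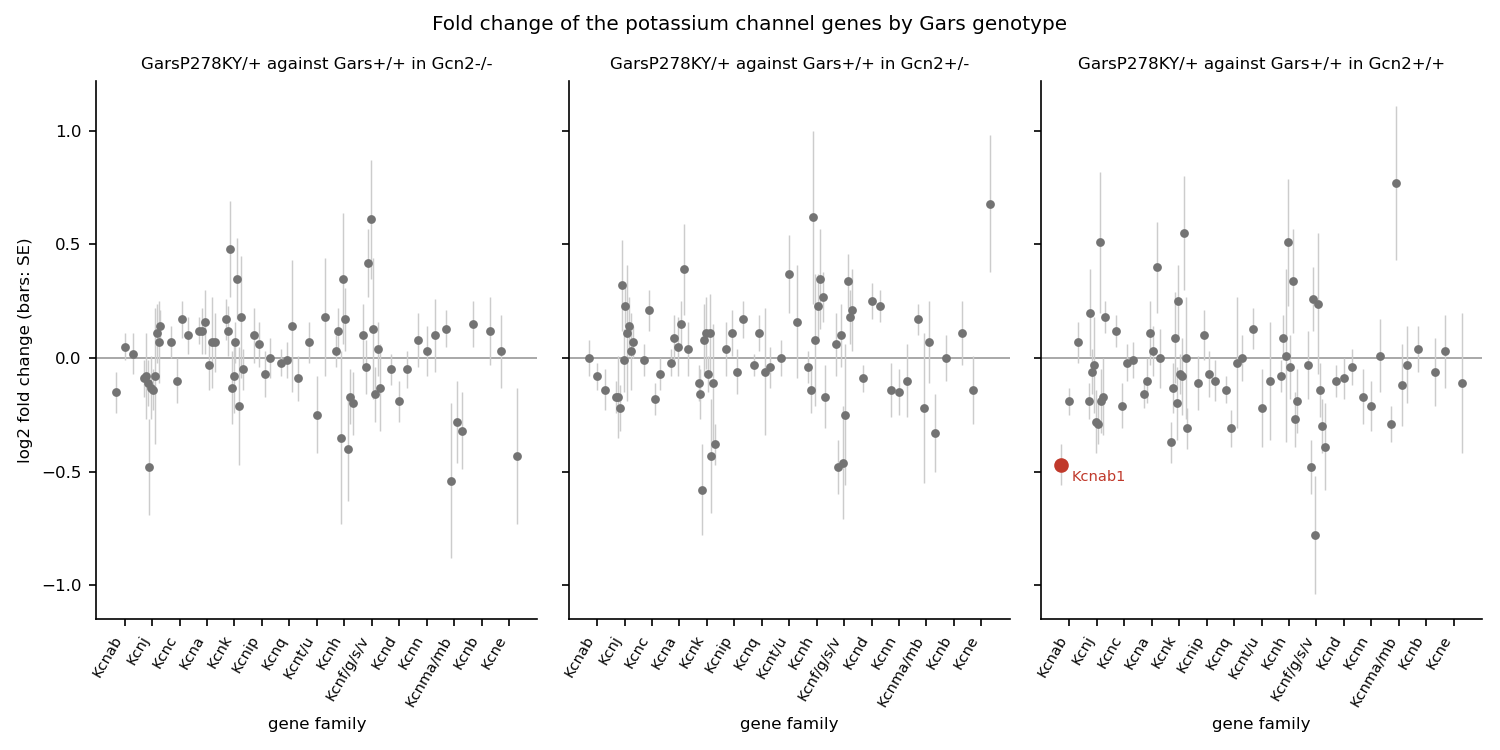
Log2 fold change of GarsP278KY/+ over Gars+/+ with its SE for each of the 74 genes, by symbol family, with 1 panel each for Gcn2-/-, Gcn2+/- and Gcn2+/+ mice, in the fit without the length set. The called gene, Kcnab1 at -0.47, is in the Gcn2+/+ panel, where 49 of 74 lie below 0, and no gene is called in the other panels.

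In Gcn2+/- mice the Gars mutation changed none of the 74 genes by edgeR, with 0.178% of all genes called, and 16 had an unadjusted p below 0.05 (21.6%, against 14.7% of all genes). Nor was any called with the length set in the fit (0.0632% of all genes). The median of the 74 was 0.02, against -0.01 for all genes. DESeq2's Wald test called Kcnk9 (adjusted p = 0.0128) and Kcng1 (adjusted p = 0.0376), both lower in mutants.

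Kcnk9 was at 21.1, 17.5, 17.5 and 18.9 CPM in Gcn2+/- mutants, against 24.8, 24.4, 24 and 24.4 CPM in controls. The controls lay within 1 CPM of each other and above all mutants, and the log2 fold change was -0.38 ± 0.09 (adjusted p = 0.0768, edgeR) and -0.31 ± 0.10 with the length set (adjusted p = 0.528). Kcng1 was at 5.3, 4.15, 4.22 and 4.84 CPM in mutants, against 6.93, 6.62, 5.83 and 6.27 CPM in controls, again with no overlap, at -0.48 ± 0.12 (adjusted p = 0.104). Kcng4 was at 76.0, 70.7, 70.2 and 70.3 CPM in mutants, against 101.8, 101.6, 84.9 and 89.3 CPM in controls, with no overlap either. Kcng1 and Kcnk9 had like fold changes in Gcn2+/- and Gcn2+/+ mice, in groups that share no library but enter 1 fit. They are the genes that DESeq2 called in Gcn2+/- mice, and it called both in Gcn2+/+ mice too. Their likeness is therefore in part set by that choice. The difference of the 2 effects was 0 to 2 decimals for Kcng1 (SE 0.16, adjusted p = 0.996) and -0.07 ± 0.12 for Kcnk9 (adjusted p = 0.77), and the SEs leave room for differences of either sign. Given the length set it was 0.11 ± 0.21 for Kcng1 and 0.09 ± 0.16 for Kcnk9. In Gcn2-/- mice the log2 fold change was -0.04 ± 0.12 for Kcng1 and -0.05 ± 0.09 for Kcnk9, and the differences from Gcn2+/+ mice of 0.43 ± 0.17 and 0.25 ± 0.13 were not called (adjusted p = 0.937 for both).

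Groups that did not overlap numbered 4 with mutants lower (5.4%, against 3.41% of all genes), namely Kcng1, Kcng4, Kcnk9 and Kcnk12, the last a two-pore subunit known as THIK-2. They numbered 5 with mutants higher (6.8%, against 3.78%), namely Kcnd2, Kcnd3, Kcne4, Kcnip4 and Kcnj3. Kcnd2 and Kcnd3 are the A-type pores Kv4.2 and Kv4.3 and Kcnip4 is one of their calcium-binding partners. Kcnd3 was at 68.9, 71.1, 69.6 and 71.7 CPM in Gcn2+/- mutants, against 66.6, 58.4, 54.9 and 60.6 CPM in controls. Every mutant lay above every control. The log2 fold change was 0.23 for Kcnd3 and 0.25 ± 0.08 for Kcnd2 (adjusted p = 0.225, edgeR), and 3 of the 4 mutants are of the longer set, in which Kcnd2 was called higher.

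In Gcn2-/- mice none of the 74 genes was called by edgeR or by DESeq2, and 2 of all genes were (0.0115%), the same with the length set in the fit. At an unadjusted p below 0.05 there were 6 (8.11%, against 4.35% of all genes), and the median was 0.03, against 0 to 2 decimals for all genes. Among the 6 were Kcng2, Kcng4, Kcnk12, Kcnj16 and Kcnd2, each at an adjusted p of 0.941 by edgeR. Every mutant lay above every control for 2 genes (2.7%, against 2.11% of all genes), Kcng2 and Kcnk4, and below for 1 (1.4%, against 1.71%), Kcnmb4. Kcnab1 was at 137.6, 114.5, 116.7, 123.1 and 118.2 CPM in mutants, against 128.7, 137.0 and 137.4 CPM in controls, where mutant 1, the only mutant of the longer set, was the highest. Kcnma1 was at 34.4, 40.1, 37.7, 46.9 and 39.1 CPM in mutants, against 39.3, 34.6 and 36.1 CPM in controls, which overlap. Kcnk1 was at 75.9, 76.3, 74.8, 85.1 and 93.4 CPM in mutants, against 72.5, 66.1 and 82.0 CPM in controls, which overlap too. Kcng4 was at 89.1, 89.0, 46.3, 99.3 and 94.0 CPM in mutants, against 47.9, 41.0 and 82.5 CPM in controls, a log2 fold change of 0.61 ± 0.26. Apart from mutant 3, every mutant lay above every control. Its 3 low values, in mutant 3 and controls 1 and 2, are among the 6 libraries that share the 2 title numbers. All 3 controls and 2 of the 5 mutants are of the set with the lower (early) title numbers, and with early and late numbers as a factor in the fit the log2 fold change was 0.33 (adjusted p = 0.965).

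**Figure D5:**
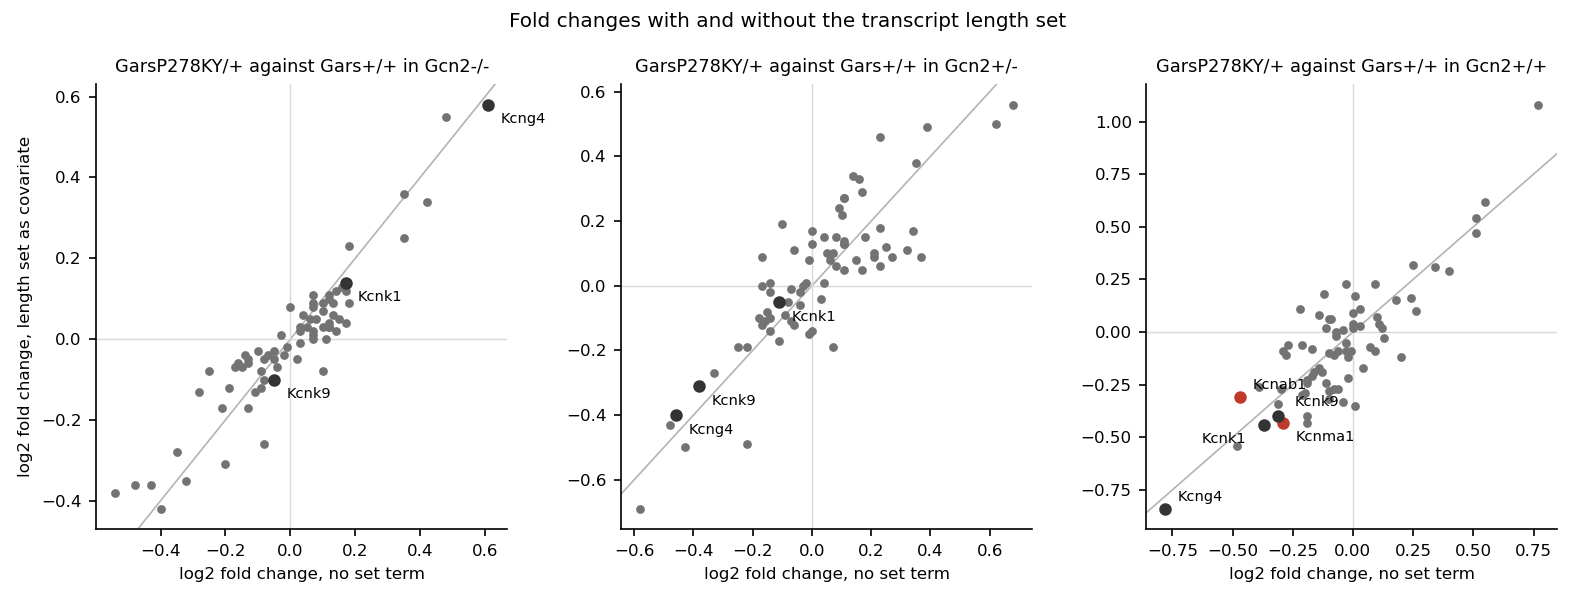
Log2 fold change of GarsP278KY/+ over Gars+/+ for each of the 74 genes in the fit with the length set (vertical axis) against the fit without it (horizontal axis), with a panel each for Gcn2-/-, Gcn2+/- and Gcn2+/+ mice; red points were called in either fit and the line marks equal values. In the Gcn2+/+ panel Kcnma1 lies at -0.43 with the set and -0.29 without, and Kcnab1 at -0.31 and -0.47; the sign was the same in both fits for 70 genes in Gcn2-/- mice, 65 in Gcn2+/- mice and 58 in Gcn2+/+ mice.

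The next comparison asked whether the Gars effect differed between Gcn2 genotypes. Between Gcn2-/- and Gcn2+/+ mice no potassium channel gene was called by edgeR, with 0.0115% of all genes called, and 10 had an unadjusted p below 0.05 (13.5%, against 4.93% of all genes), 8 of them above 0 (2.4% of all genes). The median difference was 0.10, against 0 for all genes. Adding the length set left none called, with 0.0172% of all genes called. Kcnk1 had a log2 fold change of 0.54 ± 0.13 more in Gcn2-/- than in Gcn2+/+ mice (adjusted p = 0.375, edgeR), which DESeq2's Wald test called (adjusted p = 0.0317). The difference with the length set was 0.57 ± 0.13 (adjusted p = 0.215). For Kcnma1 it was 0.42 ± 0.11 (adjusted p = 0.605), and 0.49 ± 0.09 with the length set (adjusted p = 0.114). For Kcng4 it was 1.39 ± 0.38 (adjusted p = 0.605), the widest of the named genes above 0. It was 1.28 with the title number as a replicate block (adjusted p = 0.545) and 1.00 with early and late title numbers in the fit (adjusted p = 0.698). Kcnmb1 was the widest below it at -1.31. A lost call in Gcn2-/- mice is thus not shown to be a difference from Gcn2+/+ mice for any of the 74 genes by edgeR.

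Between Gcn2+/- and Gcn2+/+ mice 4 of the 74 genes were called, all with the mutation's effect more positive in Gcn2+/- mice. They were Kcnma1 at 0.46 ± 0.10 (adjusted p = 0.0399), Kcnj3 at 0.52 ± 0.13 (adjusted p = 0.0399), Kcnab1 at 0.47 ± 0.12 (adjusted p = 0.0426) and Kcnq3 at 0.42 ± 0.11 (adjusted p = 0.0472), by edgeR. Of all genes 644 were called (3.7%), 427 of them above 0 (2.45%). At an unadjusted p below 0.05 there were 17 of the 74 (23.0%, against 23.4% of all genes). This is the contrast that the length sets cross most: 3 of 4 Gcn2+/- mutants and 3 of 4 Gcn2+/+ controls are of the longer set, and 0 of 4 of the Gcn2+/- controls and Gcn2+/+ mutants. Given a term for the set, 2 of all genes were called (0.0115%), and 1 was of the 74, Kcnma1 at 0.72 ± 0.12 (adjusted p = 0.0464). Without every library high in nerve root markers none of the 74 was called, and Kcnma1 was at 0.40 (adjusted p = 0.276). Leaving out single libraries also moved the count. It was 0 without Gcn2+/- mutant 2, 3 or 4, Gcn2+/- control 3, Gcn2+/+ mutant 2, 3 or 4, or Gcn2+/+ control 2, 3 or 4, and 1, Kcnma1, without Gcn2+/- control 4 or Gcn2+/+ mutant 1. It was 8 without Gcn2+/+ control 1, the control of the shorter set. That omission leaves every Gcn2+/+ control in the longer set and every Gcn2+/+ mutant in the shorter. The share of all genes called without each library is not given here.

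Kcnma1 was at 40.3, 38.0, 38.5 and 42.1 CPM in Gcn2+/- mutants, against 33.0, 34.1, 32.8 and 39.4 CPM in Gcn2+/- controls. Control 4 lay inside the range of the mutants, and the other 3 controls lay below them. The Gars effect with the length set in the fit was 0.29 ± 0.07 in Gcn2+/- mice (adjusted p = 0.211, edgeR) and -0.43 ± 0.08 in Gcn2+/+ mice (adjusted p = 0.0131). With both the length set and the nerve root score the difference was 0.68 (adjusted p = 0.471), and in the shorter set alone it was 0.67 (adjusted p = 0.464). In the shorter set each of those groups has 4 libraries or 1, and the lone Gcn2+/- mutant 1, at 40.3 CPM, and the lone Gcn2+/+ control 1, at 43.6 CPM, lay above all libraries of the group each was set against.

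Kcnj3 encodes GIRK1, a subunit of the G protein-gated channels through which transmitters quiet a neuron (chr2:55435970-55598145, plus strand). It was at 71.0, 84.2, 74.6 and 75.2 CPM in Gcn2+/- mutants, against 70.4, 70.3, 57.5 and 65.6 CPM in controls, and at 63.8, 58.0, 58.0 and 66.1 CPM in Gcn2+/+ mutants, against 65.4, 81.9, 88.0 and 72.7 CPM in controls. In both, the 3 highest libraries of the higher group were the 3 of the longer set, and the remaining library lay within 1 CPM of the highest of the lower group. Kcnj3 was higher in the longer set by 0.23 ± 0.05 on the log2 scale (adjusted p = 0.00663, edgeR). Its difference of effects with the length set in the fit was 0.15 ± 0.13 (adjusted p = 0.897) and its Gars effect in Gcn2+/+ mice -0.09 ± 0.08 (adjusted p = 0.784).

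Kcnab1 was at 112.4, 129.8, 122.0 and 123.3 CPM in Gcn2+/- mutants, against 133.4, 128.6, 106.2 and 122.6 CPM in controls, which overlap. Its difference of effects with the length set was 0.17 ± 0.13 (adjusted p = 0.888). Kcnq3 was at 124.7, 131.9, 111.3 and 122.5 CPM in Gcn2+/- mutants, against 110.0, 117.6, 110.9 and 112.0 CPM in controls. Mutant 3 lay inside the range of the controls and the other mutants above it. Its difference stayed near the same size with the length set, at 0.47 ± 0.16, and was not called (adjusted p = 0.741). The sign of the fold change with and without the length set was the same for 49 of the 74 genes in this contrast, against 70 of 74 in the contrast of Gcn2-/- with Gcn2+/+ mice.

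The loss of Gcn2 was then compared at fixed Gars genotype. These comparisons use the same libraries as the ones above. With wild-type Gars, no potassium channel gene was called in Gcn2-/- relative to Gcn2+/+ cords by edgeR, with 0.0287% of all genes called, and 7 had an unadjusted p below 0.05 (9.46%, against 3.68% of all genes). DESeq2 called none. The fit with the length set called none either (0.0345% of all genes), and Kcnma1 was at -0.26 ± 0.07 (adjusted p = 0.41). Its CPM in the 3 Gcn2-/- controls, 39.3, 34.6 and 36.1, lay below those of all 4 Gcn2+/+ controls, and it was the 1 gene of the 74 to do so (1.4%, against 1.94% of all genes). Kcnmb1 was the 1 gene with all Gcn2-/- controls above (against 2.27%). The glial Kcnj16 was at 0.64 and Kcns1 at 0.86, neither called.

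With mutant Gars, none of the 74 was called in Gcn2-/- relative to Gcn2+/+ cords by edgeR, with 0.494% of all genes called. At an unadjusted p below 0.05 there were 20 (27.0%, against 10% of all genes), 50 of 74 were above 0, and the median was 0.07, against 0 to 2 decimals for all genes. Nor was any called with the length set (0.563% of all genes). DESeq2's Wald test called 4, namely Kcna1 (adjusted p = 0.0106), Kcng4 (adjusted p = 0.0188), Kcnab2 (adjusted p = 0.0208) and Kcnk1 (adjusted p = 0.0422), all higher in Gcn2-/- mutants. For Kcng4, Gcn2+/+ mutants 1 and 3 and Gcn2-/- mutant 3 were below 50 CPM and carry 1 of the 2 title numbers described above. Gcn2-/- mutant 5 carries 1 of them too and was at 94.0 CPM. The part of the title number in this call was not tested. All 8 genes whose groups stood apart were higher in Gcn2-/- mutants (10.8%, against 2.11% of all genes), among them Kcna1, Kcnab1, Kcnab2, Kcng1, Kcnj3, Kcnk1 and Kcnn1, and none was lower (against 2.09%).

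The smallest p-values here were those of Kcna1 and Kcnab2, both in the list of axonal and nodal Kv genes. Kcna1 was at 845.1, 765.8, 812.9, 826.1 and 869.4 CPM in Gcn2-/- mutants, against 666.9, 702.1, 732.6 and 718.9 CPM in Gcn2+/+ mutants. Its log2 fold change was 0.22 ± 0.06 (adjusted p = 0.0891, edgeR) and 0.23 ± 0.06 with the length set (adjusted p = 0.0772). Kcnab2 was at 502.3, 478.8, 496.4, 504.1 and 501.9 CPM in Gcn2-/- mutants, against 407.3, 422.0, 467.0 and 402.7 CPM in Gcn2+/+ mutants, at 0.24 ± 0.06 with the length set (adjusted p = 0.0856). The Gcn2-/- mutants stood above the Gcn2+/+ mutants in every library for both genes. Of the 9 libraries of this contrast, Gcn2-/- mutant 1 is of the longer set, and Gcn2+/+ mutants 2 and 4 are above the limit for nerve root markers. Of the 10 axonal and nodal Kv genes, 8 were above 0 (49.3% of all genes were) and 7 had an unadjusted p below 0.05, all above 0 (4.35% of all genes). The median was 0.19, against 0 to 2 decimals for all genes.

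Genes near Eif2ak4 can carry the strain of origin of the Gcn2 allele, which was not tested here and cannot be told apart from Gcn2 genotype in this design. Kcna4 and Kcnip3 lie 11.09 and 8.98 Mb from Eif2ak4 on chromosome 2, the only 2 of the 74 within 20 Mb of Eif2ak4 or of Gars. Kcna4, an A-type Kv1 pore, was 0.22 higher on the log2 scale in Gcn2-/- than in Gcn2+/+ mice with mutant Gars and 0.27 higher with wild-type Gars. Kcnip3, a calcium-binding partner of Kv4 channels, was 0.14 higher in both, and none of these was called.

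Last, the length sets themselves were compared within the fit that holds the 6 groups and sex, longer over shorter. Of the 74 genes 13 were called (17.6%, against 13.4% of all genes), 5 higher in the longer set (8.03% of all genes were) and 8 lower (5.38%). Higher were Kcnj3, Kcnab1, Kcnip4, Kcnd2 and Kcnt2, the last by 0.38. Among the lower were Kcnn3, the SK3 channel of the afterhyperpolarization, at -0.42 ± 0.10 (adjusted p = 0.00492, edgeR), and Kcnh2, Kcnh5, Kcnt1, Kcnj6, Kcnma1 and Kcna2, between -0.34 and -0.16.

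Genes that assemble with potassium channels but lack a Kcn symbol numbered 17. Without the length set, 2 of them were called, both in the difference of Gars effects between Gcn2+/- and Gcn2+/+ mice and both above 0 (11.8%, against 2.45% of all genes). They were Adam22 (0.34 ± 0.07, adjusted p = 0.0399, edgeR) and Lgi1 (0.36 ± 0.09, adjusted p = 0.0428), which encode a receptor and its secreted ligand found with Kv1 at axons. The median of the 17 in that difference was -0.03. With the length set in the fit neither was called, at 0.19 ± 0.09 for Adam22 (adjusted p = 0.776) and 0.33 ± 0.13 for Lgi1 (adjusted p = 0.741), and no other of the 17 was called in a comparison of genotypes. Between the length sets themselves 4 of the 17 were called, Dpp10 higher in the longer set and Abcc8, Ank3 and Dlg4 lower.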

How the data were processed

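RNA of 24 whole spinal cords was sequenced from poly(A) libraries. The authors deposited expected counts and TPM per gene. The submitters' processing notes name Bowtie2 2.2.0 and RSEM 1.2.12, which splits a read that matches several transcripts between them. Build and annotation are not given in the sources at hand. Symbols and positions are GENCODE M21's (GRCm38), matched by gene identifier (37607 of 38924 genes). Groups came from the genotype labels. No column of other samples was present (0).

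Expected counts were rounded and tested in R 4.3.3 with edgeR 4.0.16 and limma 3.58.1 (TMM factors, filterByExpr by group, robust quasi-likelihood F test, 6 groups and sex, 17 residual degrees of freedom before moderation). Sex was a term because it was unevenly spread, with 1 male of 4 Gcn2+/+ mutants and 3 males of 4 controls. The SE is the log2 fold change divided by the root of F. DESeq2 1.42.0 was an alternative. The common coefficient of variation between animals came to 0.225. Totals of 19.7 to 32.4 M expected counts limit mainly the lowest genes. TPM served only for levels between genes.

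The genes and lists were chosen with earlier results of these data known. Genes were named when called, among the 6 smallest p of a comparison, at the extremes of level or spread, leading a family, near Eif2ak4 or the count minimum, or as list examples. Genes listed for not overlapping, for DESeq2 calls, for the length sets or for fitting beside these were named after their values were seen. The length sets, the limit of 3 on nerve root markers and the alternatives that use them over all groups were chosen after seeing the data. Length sets came from genes with at least 200 counts and a SD of log2 length of at least 0.02. Title numbers shared by libraries have no stated meaning and do not pair samples by the labels. Some genes of the set enter the fits and counts but are not reported here by name.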

Additional observations from a re-analysis of the deposited data

Results flagged for a closer look

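Of 115 sets of values (23 genes in the 5 groups of 4 or more mice), 5 had 1 library far from the rest of its group, and chance alone flags about 1 in 20 such groups. Kcnd3 was highest in Gcn2+/+ control 2 at 70.6 CPM, against 63.3 to 64.5 CPM in the other controls. Kcng1 was lowest in Gcn2+/+ mutant 4 at 4.1 CPM, against 4.76 to 4.87 CPM in the other mutants. Kcng4 accounted for the remaining 3. It was lowest in Gcn2-/- mutant 3 at 46.3 CPM, highest in Gcn2+/- mutant 1 at 76.0 CPM and lowest in Gcn2+/+ control 3 at 45.1 CPM. Kcng4 also had low values in 2 of 3 Gcn2-/- controls (47.9 and 41.0 CPM), so values from 41.0 to 47.9 CPM occurred in mutant and control groups alike. The 6 libraries below 50 CPM for Kcng4 share 2 title numbers, and 3 other libraries with these numbers were at 70.7 to 94.0 CPM.

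The Gars effect differed between Gcn2+/- and Gcn2+/+ mice, by edgeR's test of the difference itself, for Kcnma1 by 0.46, Kcnj3 by 0.52, Kcnab1 by 0.47 and Kcnq3 by 0.42 on the log2 scale. Of all genes 3.7% were called in this contrast, 2.45% above 0. With a term for the length set only Kcnma1 kept the call. It was not called without every library high in nerve root markers, nor with length set and nerve root score together.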

How the results depend on the processing

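No fold change of a called gene reversed sign in any alternative. For the Gars effect in Gcn2+/+ mice, with 1 gene called, DESeq2 called 7, leaving out the sex term gave 2, and 0 were called with the nerve root score as a covariate, without both or without every library high in it, in the shorter length set alone, with length set and score together, or with the group pair fitted alone. Leaving out 1 library gave 0 to 4, with 4 without control 1 and 0 without mutant 2. For Gcn2+/- mice, with 0 called, DESeq2 called 2 and leaving out 1 library gave 0 to 2. For the difference between Gcn2-/- and Gcn2+/+ mice, with 0 called, DESeq2 called 1. For that between Gcn2+/- and Gcn2+/+ mice, with 4 called, DESeq2 called 7, the length set as covariate left 1, and 0 remained called with no filter on low genes, with the replicate block, with the score, without libraries high in nerve root markers, in the shorter set alone, with set and score, or with own groups alone. Leaving out 1 library gave 0 to 8. For the Gcn2 effect with mutant Gars, with 0 called, DESeq2 called 4. The cause of these changes was not tested. Apart from the fits with the length set as covariate, the share of all genes called is not given for these alternatives. Their counts therefore cannot be read as results about these genes as a set. With the replicate block of title numbers, which the labels do not explain, 1 was called for the Gars effect in Gcn2+/+ mice and 0 in all other comparisons. Alternatives that use length sets or every nerve root library were chosen after seeing the data. Depth limits mainly genes near 1 CPM, such as Kcnmb1.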
